A study of Mus musculus with 22 samples.

Results

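The T-box genes of the mouse trachea described here are Tbx1, Tbx2, Tbx3, Tbx4, Tbx5, Tbx15, Tbx18 and Tbx20, 8 of the 26202 gene symbols in the count table. They were chosen by symbol, and the counts of all table entries with the same symbol were summed. T-box genes encode transcription factors that bind DNA through a shared domain, the T-box. In the foregut, Tbx4 and Tbx5 are activators needed for lung budding and for tracheal cartilage and muscle, and Tbx2 and Tbx3 are repressors of the lung and tracheal mesenchyme. Tbx18 and its relative Tbx15 are known from skeletal, ureteric and epicardial mesenchyme, Tbx20 from the heart, and Tbx1 from the pharynx.

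RNA was measured by poly(A) sequencing in the 18 libraries used here, each from 5 pooled embryonic tracheas. Whole tracheas at E11.5 (E gives the age of the embryo in days) came from 5 control (Wnt5a f/f) and 4 mutant (Dermo1Cre; Wnt5a f/f) samples, in which Cre driven by Dermo1 deletes Wnt5a in mesenchyme, so the epithelium keeps the gene. At E13.5, cells were sorted from tracheas carrying the gamma SMA eGFP reporter into EpCAM-stained epithelium (2 libraries), GFP-positive muscle (2) and double-negative cells taken as chondroblasts (2). These controls were Bmp4 f/f or Notum 300/300, and the labels do not tie a genotype to a column. A further 3 libraries were double-negative cells of Notum 150/150 mutants. Control libraries of each sorted population carry 1 of 2 dates in their column headers and are named earlier and later here. All 3 mutant libraries (A, B and C) carry the later date, and the headers of B and C share a number, so they may come from 1 source. E11.5 libraries are named by the number in their header.

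Total counts ran from 6880660 in control 16 to 21678177 in the earlier chondroblast library. Levels are given as CPM, the count of a gene relative to the depth of its library, scaled by TMM factors over the 18 libraries. The sorted populations carried their own markers. Epithelial markers summed to 2994 and 3394 CPM in epithelium and at most 48.0 CPM in the control mesenchyme, and smooth muscle markers to at least 11440 CPM in muscle. Chondroblast markers summed to 2647 and 2923 CPM in control chondroblasts, but also to 999 and 2009 CPM in muscle. The earlier muscle library stood apart with 786 CPM of skeletal muscle markers against 68.8 CPM in the later one. The earlier chondroblast library held 79160 CPM of erythroid markers against 7993 CPM in the later one. The targeted genes did not separate by label: Wnt5a differed by -0.20 ± 0.30 (SE) log2 in Wnt5a mutants and Notum by -0.85 ± 0.75 log2 in Notum mutants (adjusted p = 0.9996 and 0.6705, edgeR). These counts do not say where in the gene reads fall, and the deleted part was not checked.

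The 8 genes lie on 5 chromosomes, and 4 of them form 2 close pairs (GRCm38, GENCODE M21). Tbx2 (chr11:85832551-85841948, plus strand) and Tbx4 (chr11:85886422-85916097, plus strand) are 44.5 kb apart. Tbx3 (chr5:119670669-119684724, plus strand) and Tbx5 (chr5:119832668-119885219, plus strand) are 147.9 kb apart. Coding sequence was compared between members in windows of 120 bases. In their best window, Tbx15 and Tbx18 were 84.2% identical and Tbx2 and Tbx3 83.3%. These stretches are shown because they bear on whether a read could count for either gene. Capitals mark the bases that differ within a pair, and positions count from the first coding base of the transcript.
Tbx2, coding bases 284 to 403: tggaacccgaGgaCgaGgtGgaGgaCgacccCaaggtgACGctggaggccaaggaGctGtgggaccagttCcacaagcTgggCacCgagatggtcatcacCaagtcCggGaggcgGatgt
Tbx3, coding bases 278 to 397: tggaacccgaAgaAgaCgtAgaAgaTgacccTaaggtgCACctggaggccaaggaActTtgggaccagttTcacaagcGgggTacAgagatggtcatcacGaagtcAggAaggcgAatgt
Tbx15, coding bases 458 to 577: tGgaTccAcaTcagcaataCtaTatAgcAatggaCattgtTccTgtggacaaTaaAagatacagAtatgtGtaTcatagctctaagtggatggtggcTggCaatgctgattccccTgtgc
Tbx18, coding bases 554 to 673: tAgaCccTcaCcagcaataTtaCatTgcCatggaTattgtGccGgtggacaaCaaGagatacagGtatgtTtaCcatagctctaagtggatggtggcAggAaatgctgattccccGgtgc
The differences are spread along each pair. Across all 28 pairs of members, the longest coding run shared without a mismatch was 23 bases, and no pair shared a run of 50 bases. Untranslated parts were not compared.

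In the sorted E13.5 control cells, 4 members were abundant in mesenchyme: Tbx3, Tbx4, Tbx5 and Tbx2. Per transcript length, Tbx4 (41.7 ± 4.1 CPM per kb, SD, n = 2) and Tbx3 (39.4 ± 8.1) stood first in muscle, and did not differ beyond their spread. Tbx5 (19.6 ± 5.7) and Tbx2 (14.1 ± 2.3) followed, with overlapping ranges of mean ± SD. In control chondroblasts the order was Tbx3 (34.4 ± 9.0 CPM per kb), Tbx4 (24.1 ± 12.0), Tbx5 (18.2 ± 0.4) and Tbx2 (15.2 ± 6.5). The ranges of mean ± SD of neighbours in this order overlapped. Within both libraries Tbx3 was above Tbx4, at 28.0 against 15.5 CPM per kb in the earlier and 40.8 against 32.5 in the later. Tbx18 stood at 1.07 and 1.22 CPM per kb in the same cells, and Tbx1, Tbx15 and Tbx20 at 0.403 CPM per kb or less. Summed over the 8 genes, the level was 116 CPM per kb in muscle, 93.7 in chondroblasts and 16.6 in epithelium. At E11.5 the order in control tracheas was Tbx4 (18.6 ± 9.0 CPM per kb, n = 5), Tbx5 (17.8 ± 6.6), Tbx3 (13.1 ± 8.8), Tbx18 (6.82 ± 3.38) and Tbx2 (4.72 ± 1.11). Here too the ranges of neighbours overlapped. Tbx18 made up 10.96% of the family against 0.92% in E13.5 muscle.

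**Figure D1:**
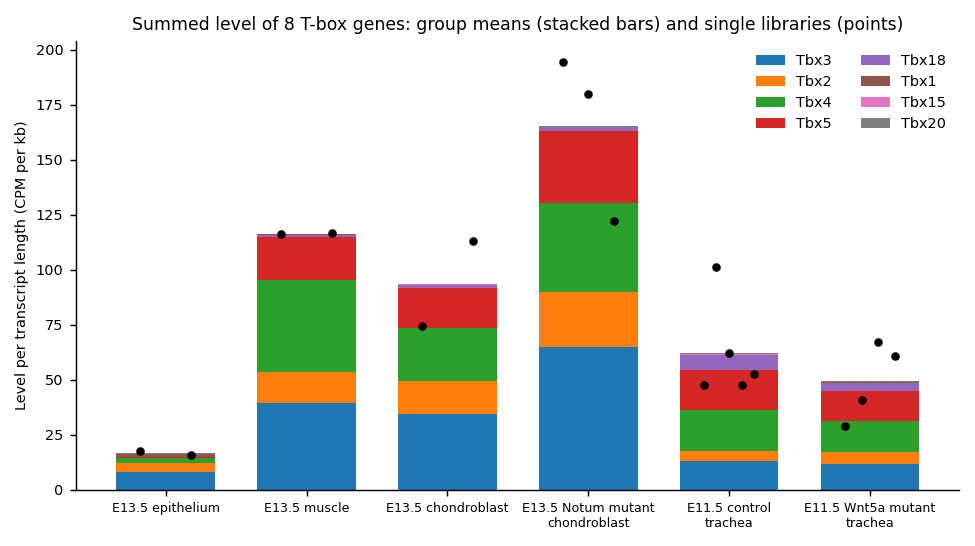
Stacked bars give the group mean level of each T-box gene per transcript length (CPM per kb), and black points give the 8-gene sum in each library. Epithelium sums to 16.6 CPM per kb and E13.5 muscle to 116, and Tbx18 takes its largest share in E11.5 control tracheas.

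The comparison of control mesenchyme (muscle and chondroblasts) with epithelium asks in which cells of the E13.5 trachea these genes are transcribed. Tbx2, Tbx3, Tbx4, Tbx5 and Tbx18 were higher in all 4 mesenchymal libraries than in both epithelial ones. Of these 5 tested members, Tbx4, Tbx5 and Tbx18 reached the level needed for a test only through mesenchyme. Neither their count nor their p-values against epithelium thus carry weight as support. Tbx1 and Tbx20, too low to test, had lower means in mesenchyme (0.113 and 0.815 times epithelium). Of all 13687 genes tested, 17.7% were likewise higher without overlap. Only Tbx5 passed an adjusted p under 0.05 (edgeR quasi-likelihood test, Benjamini-Hochberg over all genes), where 2.75% of all genes were called higher. All 5 met the study's cut-offs of unadjusted p under 0.05 and fold over 1.5, as did 10.3% of genes in this direction. These cut-offs are called the study's rule below, although its further condition on FPKM is replaced here by the level in CPM. Taken singly against epithelium, muscle and chondroblasts had no member past the adjusted threshold, with Tbx5 nearest (adjusted p = 0.05793 and 0.07267, edgeR), where 2.41% and 1.72% of genes were called higher. All 5 met the study's rule in both, as did 10.1% and 9.09% of genes in this direction.

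Tbx5, an activator, was at 93.1 and 61.5 CPM in earlier and later muscle, 72.7 and 70.4 CPM in the chondroblast libraries, and 4.17 and 0.326 CPM in epithelium. Its mean in mesenchyme was 33.1 times that in epithelium (log2 fold change 5.00 ± 1.00 SE, adjusted p = 0.04388 by edgeR). Because Tbx5 reached the level needed for a test only through mesenchyme, this p-value carries no weight as support. That call is lost without either muscle or either chondroblast library (adjusted p 0.107 to 0.13) and with the largest entry of each symbol (0.0512). Leaving out 1 library moved the Tbx5 difference from 4.13 (without later epithelium) to 7.80 log2 (without earlier epithelium).

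Tbx4, its close relative, was at 134 and 117 CPM in muscle, 46.8 and 97.997 CPM in chondroblasts, and 0.959 and 11.6 CPM in epithelium. The means differed 15.8-fold (3.93 ± 1.01 log2, adjusted p = 0.08717 by edgeR), with the lower epithelial library at 20 counts. It was 3.04 log2 without the earlier and 6.61 log2 without the later epithelium. The table holds 2 entries for Tbx4, and the estimated counts were divided between them differently across tissues. The first entry held 83.8% and 94.1% of Tbx4 counts in muscle and 57.5% and 94.2% in chondroblasts, but 1.9% in both epithelial libraries. The entries carry only the gene symbol, so it is not known which transcript each stands for. The epithelial share was the same at 178 and 20 counts, and whether it reflects transcript use or the estimation was not tested. With the largest entry alone, which is the first, the difference was 9.75 log2. That entry held only 3.341 and 0.375 counts in the later and earlier epithelium, so 9.75 log2 rests on almost no epithelial counts. The size of the Tbx4 difference thus turns on how entries are joined.

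**Figure D2:**
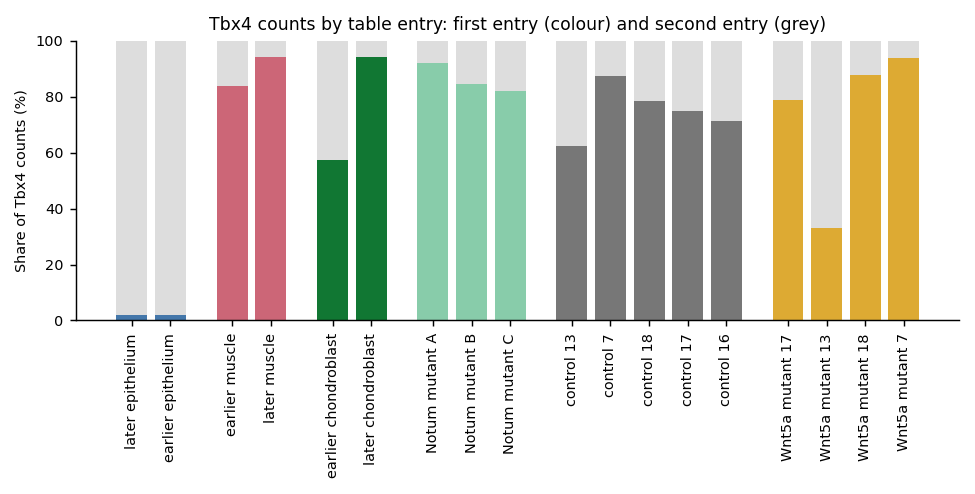
Each bar is a library and gives the share of its Tbx4 counts (%) in the first table entry (colour, by group) and the second (grey). Both epithelial libraries have 1.9% in the first entry, and in the other libraries its share runs from 33.1% to 94.2%.

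The repressor Tbx3 was at 163 and 219 CPM in muscle, 136 and 198 CPM in chondroblasts, and 59.8 and 19.1 CPM in epithelium (2.16 ± 0.51 log2, adjusted p = 0.06685 by edgeR). Tbx2 was at 45.4 and 56.9 CPM in muscle, 38.4 and 71.8 CPM in chondroblasts, and 5.56 and 24.4 CPM in epithelium (1.82 ± 0.67 log2, adjusted p = 0.2047 by edgeR). So both repressors kept a measurable epithelial level, with means 4.54 and 3.55 times higher in mesenchyme. The 2 epithelial libraries disagreed on them, the earlier being higher for Tbx3 and the later for Tbx2. Leaving out 1 library, Tbx3 ran from 1.56 to 3.23 log2 and Tbx2 from 1.12 (without earlier epithelium) to 3.23 log2 (without later epithelium).

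Tbx18 had no count in either epithelial library, and 5.47, 4.54, 6.43 and 5.01 CPM in earlier muscle, later muscle, earlier chondroblasts and later chondroblasts. Against a floor of 3 counts per epithelial library (0.170 CPM on average), its mesenchymal mean was at least 31.6-fold higher, and its adjusted p was 0.05686 (edgeR). Counting error and the depth of these libraries limit this bound.

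Tbx1, Tbx15 and Tbx20 were too low for a test here, a level of 1 CPM being needed in over 50% of a population's libraries. Tbx1 was highest in the later epithelium, at 6.13 CPM, against 0.815 CPM in the earlier one and 0 to 1.01 CPM in mesenchyme. Pharyngeal endoderm markers, genes of a tissue that carries Tbx1, were all at 0 in the later epithelium and summed to 10.1 CPM in the earlier one. Tbx20 reached 5.41 CPM in the later epithelium and 5.18 CPM in the earlier muscle, and was at 0 counts in the later chondroblast library. Heart muscle markers summed to 1932 CPM in the earlier and 654 CPM in the later muscle against at most 14.7 CPM in epithelium and control chondroblasts. Most of the muscle sum was Actc1, also a smooth muscle gene, at 1794 and 588 CPM. Tnnt2 was at 96.8 and 56.9 CPM in earlier and later muscle, Myh7 at 25.2 and 0.315 CPM, and Myl7 at 10.7 and 5.61 CPM. Nppa was at 2.08 CPM in both muscle libraries, and Myh6, Myl2, Tnni3 and Nkx2-5 were at 1.131 CPM or less. The part of heart muscle cells was not tested. Tbx15 was at 0 in both epithelial libraries and reached 2.32 CPM in the later chondroblasts.

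**Figure D3:**
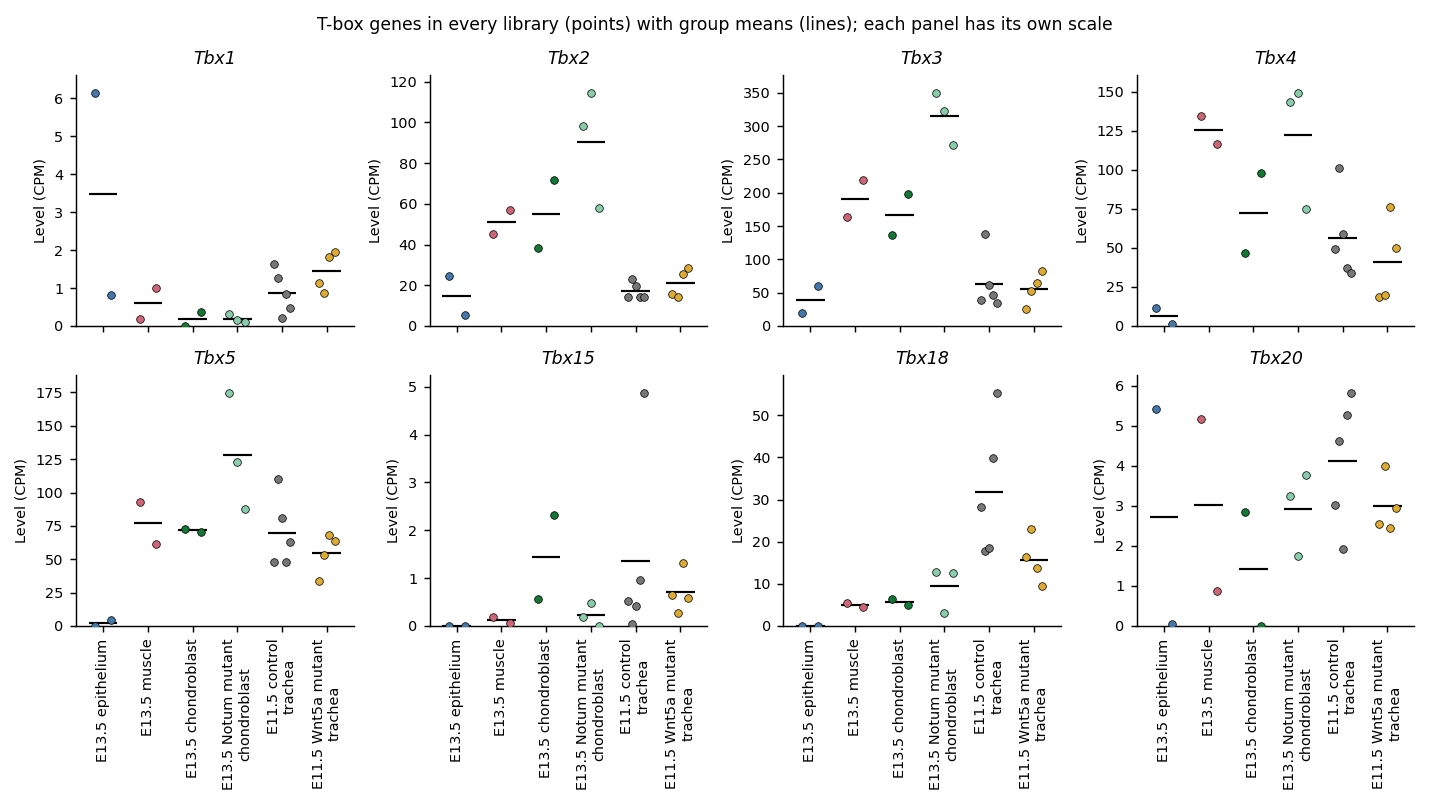
Points give the level (CPM) of each T-box gene in every library and lines give group means. Tbx2, Tbx3, Tbx4 and Tbx5 are higher in every sorted mesenchymal library than in epithelium, and Tbx18 is highest in E11.5 control tracheas.

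Promoter sequence was looked at for the 2 genes of this mesenchymal set that have an entry in the RefSeq promoter table (GRCm38.p6), which holds 4 of the 8 members (Tbx1, Tbx4, Tbx18 and Tbx20). The 250 bases before the annotated start are shown, with no letters in capitals because neither motif searched was found in them.
Tbx4, chr11:85896515-85896764, plus strand: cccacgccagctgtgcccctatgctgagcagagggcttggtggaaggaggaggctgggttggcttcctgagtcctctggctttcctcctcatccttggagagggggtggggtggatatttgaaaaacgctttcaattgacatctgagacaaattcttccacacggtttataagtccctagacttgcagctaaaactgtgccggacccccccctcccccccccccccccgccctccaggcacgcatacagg
Tbx18, chr9:87731261-87731510, minus strand: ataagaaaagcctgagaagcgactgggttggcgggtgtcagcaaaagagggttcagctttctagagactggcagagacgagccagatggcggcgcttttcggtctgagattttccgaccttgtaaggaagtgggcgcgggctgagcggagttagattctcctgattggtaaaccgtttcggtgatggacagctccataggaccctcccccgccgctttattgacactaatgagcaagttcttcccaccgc
The motifs were the T-box core AGGTGT and the TCF/LEF core CTTTGA, the letters bound by factors of Wnt/beta-catenin signalling, on both strands and without overlap between them. Of all 32851 promoters of this length, 11.8% held the first and 13.8% the second. The 2 windows are 58.4% and 54.0% GC, against a median of 52.4% over the table. The Tbx4 start in RefSeq lies inside the gene as GENCODE draws it.

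Between chondroblasts and muscle of the control tracheas, none of the 5 tested members passed the adjusted threshold or the study's rule (adjusted p = 1 for each, smallest unadjusted p = 0.4243, edgeR), where 0.132% and 5.47% of all genes did. DESeq2 called none of the 5 either. Tbx4 was lower in both chondroblast libraries than in both muscle libraries, with a log2 difference of -0.80 ± 0.94, and 19.2% of all genes were lower without overlap. Tbx15, untested, was higher without overlap, at 0.557 and 2.32 CPM against 0.179 and 0.0631 CPM, as were 21.2% of tested genes. The differences of Tbx2 (0.10 ± 0.71), Tbx3 (-0.20 ± 0.52), Tbx5 (-0.12 ± 0.87) and Tbx18 (0.18 ± 1.25) were smaller than their standard errors. With 2 libraries a population, differences of this size were not detectable, which does not show that the populations are alike.

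In Notum mutant chondroblasts, Tbx2, Tbx3, Tbx4, Tbx5 and Tbx18 had higher means than in the control chondroblasts. Tbx20 did too, but reached the level needed for a test through the mutants, Tbx1 was equal (0.188 and 0.187 CPM) and Tbx15 was lower. Notum encodes a secreted enzyme that removes the lipid from Wnt proteins. None passed an adjusted p under 0.05 by edgeR, nor did any other gene (0% of 14120 tested), although 1762 genes had an unadjusted p under 0.05, and DESeq2 called 526. Tbx3 and Tbx5 passed the study's rule, which 5.51% of genes met in this direction. The same 2 were higher without overlap between the groups, as were 16.7% of all genes.

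Tbx3 was at 350, 323 and 271 CPM in mutants A, B and C, and at 136 and 198 CPM in earlier and later control chondroblasts. The 3 mutant libraries were thus all above both controls, by 0.93 ± 0.20 log2 (unadjusted p = 0.003196, adjusted p = 0.2512, edgeR). DESeq2 gave an adjusted p of 0.00166, and edgeR 0.0411 without the later chondroblast library. Against the later control alone, the library of the mutants' own date, Tbx3 was 0.68 log2 higher (adjusted p = 0.0369 by edgeR), and 0.675 log2 higher with date as a block (0.0365). In those fits 2540 and 2604 genes were called and the lone control was assumed to vary like the mutants. With mutants B and C joined as 1 library, Tbx3 was 0.97 log2 higher (adjusted p = 0.489, edgeR) and no member passed.

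Tbx5 was at 174, 123 and 87.5 CPM in mutants A, B and C and at 72.7 and 70.4 CPM in the controls. The difference was 0.86 ± 0.28 log2 (unadjusted p = 0.02138, adjusted p = 0.3306, edgeR), and mutant C lay closest to the controls. Tbx4 overlapped between the groups, with 143, 149 and 75.2 CPM in mutants against 46.8 and 97.997 CPM in controls (0.78 ± 0.41 log2). Tbx2 overlapped too, with 98.4, 115 and 58.0 CPM against 38.4 and 71.8 CPM (0.73 ± 0.38 log2). For these 3 genes, as for Tbx3, mutant C was the lowest of the mutant libraries.

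Tbx18 was at 12.8, 3.07 and 12.6 CPM in mutants A, B and C against 6.43 and 5.01 CPM in controls (0.76 ± 0.67 log2, adjusted p = 0.6688 by edgeR). Mutant B thus lay below both controls. Mesothelial markers moved with these values, at 50.8, 1.27 and 35.2 CPM in A, B and C and 17.7 and 7.18 CPM in the controls, and their part in the result was not tested. Tbx20 was at 3.24, 1.75 and 3.76 CPM in mutants, 2.83 CPM in the earlier control and 0 counts in the later one. Its calls in the fits by date rest on that library at 0 counts: 8.81 log2 (adjusted p = 0.0222, edgeR) against the later control alone and 8.82 log2 (0.0194) with date as a block. Tbx1 was at 0.374 CPM or less in these 5 libraries. Tbx15, untested, was lower in mutants without overlap, at 0.182, 0.487 and 0 CPM against 0.557 and 2.32 CPM, as were 17.3% of tested genes. Heart muscle markers summed to 28.1 to 112 CPM in mutants and 8.37 and 12.8 CPM in controls, and chondroblast markers to 3420 to 4357 CPM against 2647 and 2923 CPM. What part these cells or the sort had in the T-box values was not tested.

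**Figure D4:**
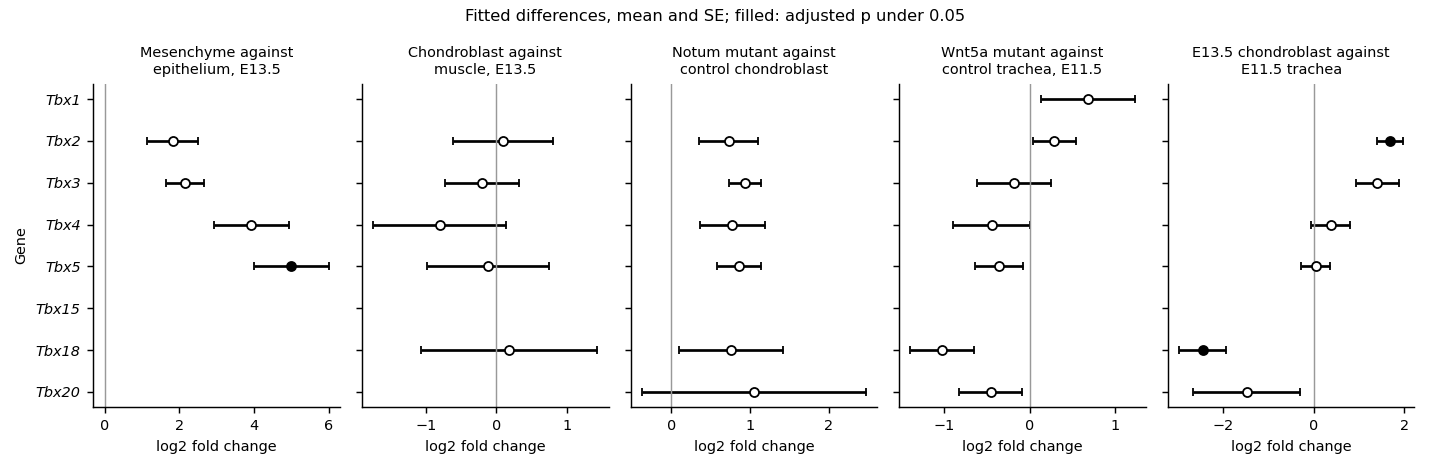
Circles give the fitted log2 fold change of each tested T-box gene in 5 comparisons and bars its standard error, filled where the adjusted p (edgeR) is under 0.05. Filled circles are Tbx5 in mesenchyme against epithelium and Tbx2 and Tbx18 between E13.5 chondroblasts and E11.5 tracheas. Against epithelium, Tbx4 and Tbx5 reached the level needed for a test only through mesenchyme. Tbx18 against epithelium is left out because the epithelium had no counts.

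In whole tracheas at E11.5, Tbx18 was the 1 member of 7 tested that met the study's rule between Wnt5a mutants and controls. Wnt5a is a ligand of non-canonical Wnt signalling. No member passed an adjusted p under 0.05 (adjusted p = 0.9996 for each, edgeR), while 2 of 14663 genes (0.0136%) did. In the direction of Tbx18, 2.53% of genes met the study's rule. DESeq2 called none of the 7 members and 40 genes in all, and 672 genes had an unadjusted p under 0.05 by edgeR. In whole tracheas, fewer cells of a type and less RNA per cell cannot be told apart.

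Tbx18 was at 55.2, 39.8, 28.1, 18.4 and 17.9 CPM in controls 16, 17, 13, 18 and 7. In mutants 13, 17, 18 and 7 it was at 23.0, 16.3, 13.8 and 9.45 CPM. The groups overlapped, since mutant 13 lay above 2 controls, and the difference was -1.02 ± 0.37 log2 (unadjusted p = 0.01833, edgeR). Control 16, the highest, is also the shallowest library, and without it the difference was -0.73 log2. Without mutant 7 it was -0.82 log2 and no longer met the study's rule.

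Markers of mesothelium and epicardium (Wt1, Upk3b, Upk1b, Msln and Lrrn4), cell types that could carry Tbx18, moved with it. Their sum was 277, 299, 168, 78.7 and 61.9 CPM in controls 16, 17, 13, 18 and 7, and 122, 105, 55.5 and 31.5 CPM in mutants 13, 17, 18 and 7. The libraries thus followed nearly the same order as for Tbx18 within each group. Erythroid markers followed the order of Tbx18 exactly, at 24090, 19190, 9916, 6618 and 3380 CPM in the controls and 13020, 10260, 7289 and 5065 CPM in the mutants. With erythroid genes left out of the scaling, the Tbx18 difference was -1.01 log2. Upk3b, a mesothelial surface protein, led the mesothelial sum, at 143, 141, 82.6, 31.8 and 33.1 CPM in controls 16, 17, 13, 18 and 7. In mutants 13, 17, 18 and 7 it was at 78.0, 40.9, 22.2 and 15.0 CPM, so the groups overlapped. In the sorted muscle libraries of E13.5, which had 2.26 and 0.126 CPM of mesothelial markers, Tbx18 was at 5.47 and 4.54 CPM. Markers of pericytes, which could also carry Tbx18 (Pdgfrb, Rgs5, Kcnj8, Cspg4 and Abcc9), summed to 803 and 290 CPM there. At E11.5 the pericyte markers summed to 227 to 431 CPM in controls and 134 to 374 CPM in mutants. The part of any of these kinds of cell in the E11.5 difference was not tested.

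**Figure D5:**
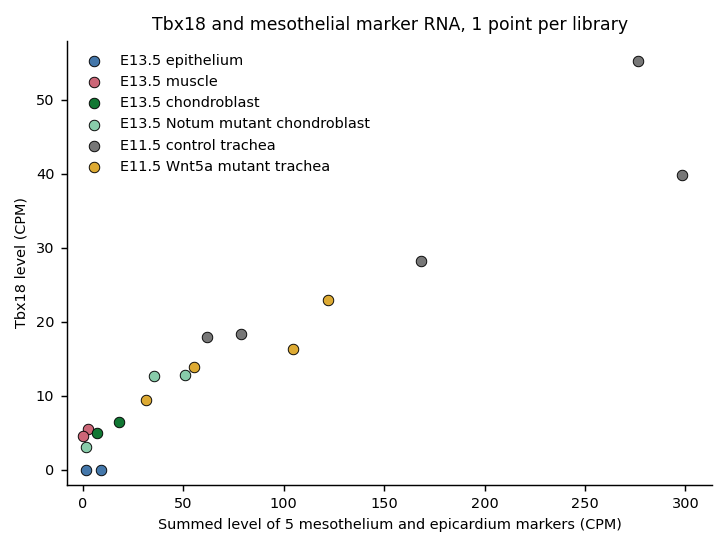
Each point is a library, with the summed level of 5 mesothelium and epicardium markers (CPM) on the x axis and the Tbx18 level (CPM) on the y axis. Controls 16 and 17 lie highest on both axes, and the sorted muscle libraries hold 5.47 and 4.54 CPM of Tbx18 at 2.26 CPM of markers or less.

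The other members overlapped between Wnt5a mutants and controls, and 1.19% of all tested genes did not. Tbx4 ranged from 34.2 to 101 CPM in controls (median 49.1) and was at 18.4, 20.1, 50.1 and 76.4 CPM in mutants (-0.45 ± 0.45 log2). Tbx5 ranged from 48.0 to 110 CPM (median 62.9) and was at 33.9, 53.5, 64.0 and 68.1 CPM in mutants (-0.35 ± 0.28 log2). Both activators thus had lower mutant means within the spread of the controls.

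Tbx3 differed by -0.18 ± 0.43 log2, with controls from 34.5 to 138 CPM and mutants from 25.8 to 82.1 CPM. Its direction was not stable, being reversed in 2 of the fits that left out 1 library. Without control 7 the difference was 0.31 log2. Tbx2 was at 14.2 to 23.1 CPM in controls and 14.037 to 28.3 CPM in mutants (0.29 ± 0.25 log2). Tbx20 differed by -0.45 ± 0.37 log2 (4.12 CPM in controls and 2.99 CPM in mutants) and Tbx1 by 0.68 ± 0.55 log2 (0.879 and 1.45 CPM). Tbx1 reached the level needed for a test only through the mutants, so its direction carries no weight as support. Tbx15 was too low to test, at 0.0502 to 4.86 CPM. Heart muscle markers, beside Tbx5 and Tbx20, summed to 56.5 to 504 CPM in controls and 152 to 376 CPM in mutants, and control 16 was highest for both Tbx20 and these markers. Beside Tbx1, skeletal and branchiomeric muscle markers summed to 74.5 to 121 CPM in controls and 156 to 216 CPM in mutants, and their part was not tested.

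Between E11.5 control tracheas and E13.5 control chondroblasts, Tbx2 was higher and Tbx18 lower at E13.5, both past an adjusted p under 0.05, where 7.01% and 5.45% of 14728 genes were called in the 2 directions. Stage, sorting and the makeup of the tissue change together here and cannot be told apart. Tbx2 was at 38.4 and 71.8 CPM in chondroblasts against 14.2 to 23.1 CPM at E11.5 (1.69 ± 0.28 log2, adjusted p = 0.008096, edgeR). Tbx18 was at 6.43 and 5.01 CPM against 17.9 to 55.2 CPM (-2.46 ± 0.52 log2, adjusted p = 0.02, edgeR). Neither gene overlapped between the groups, as was true of 17.1% of genes higher and 19.4% lower. Without the later chondroblast library, both calls were lost (adjusted p 0.0693 and 0.105), and that of Tbx18 also without control 17 (0.0515) and by limma voom (0.0536).

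Mesothelial markers moved with Tbx18 in this comparison too, at 7.18 and 17.7 CPM in chondroblasts against 61.9 to 299 CPM at E11.5, and their part was not tested. Tbx3 met the study's rule (1.40 ± 0.48 log2, adjusted p = 0.0866, edgeR), as did 12.8% of genes in this direction. Without control 7 its difference was 1.88 log2 (adjusted p = 0.00638, edgeR). Tbx4 (0.37 ± 0.43 log2) and Tbx5 (0.04 ± 0.32) lay within their errors. Tbx20 differed by -1.49 ± 1.18 log2, with 1 chondroblast library at 0 counts. It reached the level needed for a test only through the E11.5 tracheas.

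Beside Tbx3 lie antisense and neighbouring transcripts. Tbx3os1 (chr5:119570130-119671365, minus strand) overlaps the start of Tbx3, and the kit does not mark strand, so reads from their overlap cannot be told apart. Tbx3os1 was at 0.24 and 0 CPM in epithelium, 2.86 and 16.5 CPM in muscle, 7.14 and 13.6 CPM in control chondroblasts and 14.6, 19.2 and 11.1 CPM in Notum mutants A, B and C. Among E11.5 libraries its level was 3.65 CPM or less.

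The genes most like each member across the 18 libraries were found by Pearson's r of log2(CPM + 1) over 11664 genes, as a description over libraries that share groups. For Tbx18 they were Aldh1a2 (r = 0.959), Ngfr (0.939) and Bnc1 (0.914). Those of Tbx5 were Prickle2 (0.972), Stra6 (0.967) and Astn1 (0.963). Tbx4 was closest to Dzip1 (0.943) and Pth1r (0.936). Tbx3 ranked with Fat1 (0.967), 5930403L14Rik (0.960) and Sned1 (0.959), and Tbx2 with Ror1 (0.968), Ptpdc1 (0.964) and Col7a1 (0.956). For the low members the best r was smaller, at 0.849 for Tbx1 with Hes1 and 0.845 for Tbx20 with Rasal2.

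Of 9 other T-box genes in the table (T, Tbr1, Eomes, Tbx6, Tbx10, Tbx19, Tbx21, Tbx22 and Mga), Mga alone passed the filter, at 41.3 to 85.6 CPM in all libraries. Mga, a partner of Max, did not pass an adjusted p under 0.05 in any of the comparisons. Among 12 proteins known as partners of T-box factors, 11 were tested between mesenchyme and epithelium and none passed. Of the 11, 7 were higher and 4 lower, with a median of 0.28 log2. Gata4, Gata5, Mef2c and Hand2 reached the level needed for a test only through mesenchyme, so this split carries no weight as support. By the study's rule 1 was higher, the corepressor Tle1 (1.39 log2), and 2 were lower. The repressor partner Hdac1 (-0.64 log2, adjusted p = 0.07025, edgeR) and the LIM factor Isl1 (-1.23 log2, 0.05291) were those 2. In Notum mutants 10 of 11 partners were higher and 5 met the study's rule, all upward, where 5.51% of all genes did, with a median of 0.72 log2 against 0.02 over all genes. Among them Isl1 was at 1.02 log2. Gata4 (3.90 log2), also among the 5, reached the level needed for a test only through the mutants, so its direction carries no weight as support. Between E13.5 chondroblasts and E11.5 tracheas, 3 of 11 fell past the adjusted threshold, where 5.45% of all genes did: the cardiac and foregut factor Gata4 (-4.24 log2, adjusted p = 0.01438, edgeR), Hdac1 (-0.58) and the corepressor Tle3 (-1.75). Here Gata4 reached the level needed for a test only through the E11.5 tracheas, so its fall carries no weight as support.

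Of 19 genes known to act below T-box factors, 16 were tested between mesenchyme and epithelium, 11 with higher and 5 with lower means, and none passed the adjusted threshold. Their median was 1.02 log2 against 0.02 over all genes. Several of the 16, among them Shisa3, Gja5 and Wnt2b, reached the level needed for a test only through mesenchyme. The split by direction and this median thus carry no weight as support. In Notum mutants, the 15 tested had a median of -0.35 log2, with 6 higher and 9 lower. By the study's cut-offs 1 was higher and 3 were lower, as were 5.51% and 2.9% of all genes. The 1 higher was Bmp4, a growth factor of cartilage and lung (0.98 log2, adjusted p = 0.2055, edgeR). Fgf10, the growth factor of lung budding (-1.13 log2, adjusted p = 0.3147, edgeR), was among the 3 lower. In Wnt5a mutants 4 of 16 met the study's rule upward and 1 downward (1.19% and 2.53% of all genes), led by the cell cycle inhibitor Cdkn1a (1.60 log2, adjusted p = 0.06118, edgeR) and the Wnt inhibitor Frzb (1.47 log2, 0.1072). Wnt2, a mesenchymal Wnt ligand, was the 1 downward (-1.29 log2, adjusted p = 0.9725, edgeR).

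Of 20 other transcription factors of foregut mesenchyme, 18 were tested between mesenchyme and epithelium, with a median of 3.32 log2. Of these, 4 passed the adjusted threshold and 11 met the study's rule, all upward, where 2.75% and 10.3% of all genes did. Several of the 18, among them Foxf1, Foxf2, Foxc2, Gli1 and Twist1, reached the level needed for a test only through mesenchyme. The count by the study's rule and the median thus carry no weight as support. Tcf21 (3.95 log2, adjusted p = 0.006395, edgeR), Prrx1 (3.07, 0.01305), Osr1 (2.90, 0.01609) and Sox9 (3.06, 0.03994) were the 4 past the adjusted threshold, and reached the level in epithelium too. The log2 difference of Tbx4 lay among these 4, that of Tbx5 above them and those of Tbx2 and Tbx3 below them, with no test between genes.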

How the data were processed

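The authors deposited expected counts, estimated per table entry and without normalization, in 1 table of 47248 entries and 22 columns. The labels name the build mm10 and the tools Partek and limma, and the aligner is not given in the sources used here. Headers tied 18 columns to a group, and the other 4 fit no label and were left out. Entries were summed per symbol and rounded. Genes reaching 1 CPM in over 50% of a group's libraries were tested with edgeR 4.0.16 (R 4.3.3), TMM and the quasi-likelihood test, with Benjamini-Hochberg adjustment over all genes tested. The alternatives were DESeq2 1.42.0, limma 3.58.1 voom, other scalings and filters, the largest entry per symbol, a block and leaving out each library. The standard error is the absolute log2 fold change over the root of F. The fits were tested on simulated data.

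Scaling factors for CPM were computed over genes that pass the filter in at least 1 group, replacing factors over all genes after both had been seen. The change moved the scaling by 8.4% in control 16 and at most 3.3% in the other libraries. Transcript lengths are those of the longest GENCODE M21 transcript tied to a curated RefSeq record. Named genes were the 8 members, Wnt5a and Notum, the 3 genes with the highest r to each tested member (some items this rule would name are not reported here) and 4 lists of related genes, with up to 4 examples of smallest p. Members and lists were chosen with earlier results of these data known. Nothing in the labels says how cultures or litters were split beyond pooling, so p-values measure the spread between these samples. Headers carry a date for sorted cells, and deviations of same-date libraries correlated at -0.013 (epithelium and muscle), 0.149 and 0.117. The labels list more sorted samples (3, 3, 3 and 4) than the columns used (2, 2, 2 and 3), and the dash marks of 2 headers are incomplete. Intervals and floors of 3 counts cover counting error only.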

Additional observations from a re-analysis of the deposited data

Results flagged for a closer look

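In 16 sets of E11.5 values (8 genes in controls and in mutants), 2 held a library whose gap to its nearest neighbour exceeded Dixon's 95% limit, and chance gives about 1 such set in 20. Tbx3 was highest in control 7, at 137.898 CPM against 60.813 CPM in the next control, a gap of 0.746 of the whole range. Tbx15 was highest in control 16, at 4.861 CPM against 0.968 CPM in the next control, a gap of 0.809 of the range, and 31 counts lie behind that value in the shallowest library.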

How the results depend on the processing

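The number of members past an adjusted p of 0.05 moved with the processing. For mesenchyme against epithelium it was 1, and became 5 by DESeq2, 5 without a filter, 3 by limma voom, 6 with 18 libraries in 1 fit, 2 with the largest entry, and 0 to 3 leaving out 1 library. For chondroblasts against epithelium (0) it became 4, 5, 0, 5, 1 and 0 to 2 in that order, and for muscle against epithelium (0) 4, 5, 1, 5, 2 and 0 to 3. For Notum mutants (0) it became 1 by DESeq2, 2 with date as a block, 2 against the later date alone and 0 to 2 leaving out 1 library. For the stage comparison (2) it was 1 by voom and 0 to 3 leaving out 1 library, 0 without the later chondroblasts. Differences between chondroblasts and muscle changed sign: Tbx2 to -0.035 by voom and -0.01 with date as a replicate block, and, leaving out 1 library, Tbx2 ran from -0.435 to 0.474, Tbx3 from -0.511 to 0.036, Tbx5 from -0.391 to 0.211 and Tbx18 from -0.016 to 0.338. Leaving out 1 library, Tbx3 in Wnt5a mutants ran from -0.402 to 0.31, and between stages Tbx4 from -0.259 to 0.77 and Tbx5 from -0.086 to 0.249, with Tbx5 at -0.037 by library size alone. The causes were not tested. Of 650 alternative values, 554 kept their direction and side of the threshold, among them all of those with erythroid genes left out of the scaling, an alternative chosen after seeing the data.

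Counts of called genes also moved. Mesenchyme against epithelium (704) gave 2035 by DESeq2, 1928 without a filter, 3898 with 18 libraries and 265 to 1450 leaving out 1 library. Chondroblasts against muscle (18) gave 254, 305 and 532. The Notum comparison (0) gave 526 by DESeq2, 42 without a filter, 5 by voom and 9 with 18 libraries. The Wnt5a comparison (2) gave 40 by DESeq2 and 9 without a filter, and the stage comparison (1835) 3493 by DESeq2 and 825 to 3391 leaving out 1 library. Scaling by library size alone put 77% of the Notum calls by the study's rule upward, against 65.5% with TMM, and moved the median of all genes to 0.105 in the Notum and -0.117 in the stage comparison.

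The E11.5 header numbers were shared by 4 pairs, whose deviations correlated at 0.513 (7), 0.185 (13), 0.138 (17) and 0.089 (18), and mutant 17 was closest to control 16, so the number was not taken as a pairing. With it as a replicate block, 1 gene and no member passed (413 genes by the study's rule, 546 without the block, and 2 members in place of 1), and Tbx18 was at -0.727 and lower in 4 of 4 pairs. The date as a replicate block left 1 member and 555 genes called between mesenchyme and epithelium.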

Other observations

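The ratio of Tbx3 to Tbx2 per transcript length was 2.06 to 2.87 in the 4 sorted control mesenchyme libraries and 2.1 to 3.49 in the Notum mutants, but 8.03 in the earlier and 0.58 in the later epithelium. The ratio of Tbx5 to Tbx4 was 0.403 to 1.187 in sorted control mesenchyme, and in epithelium 3.322 in the earlier and 0.021 in the later library. Tbx3os2, which lies beyond the end of Tbx3, was at 5.80 and 2.06 CPM in the later and earlier epithelium and 1.504 CPM or less in all other libraries. None of these values was tested.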
